A study of Saccharomyces cerevisiae with 9 samples.

Results

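The transcripts of the shuffled hybrid strain Hyb-8 were compared with those of Sun224T-K, the parental strain described as acid tolerant, gene by gene. The comparison takes the 3 arrays of Hyb-8 and the 3 arrays of Sun224T-K, 6 of the 9 arrays in the series, by their sample titles, and every gene on the array with a systematic name, 6256 in all. The remaining 3 arrays belong to Sun049T-Z, the other parental strain. They serve here in the filter for genes to test, for the estimate of spread, and as levels set beside those of the compared pair. All cells were fermenting xylose (50 g/L) at 38°C in the presence of acetic acid at 20 mM with formic acid at 15 mM, sampled after 3 h, so heat and acid were shared by both sides of the comparison. The parental strains are industrial diploids that carry a plasmid for xylose reductase, xylitol dehydrogenase and xylulokinase. A drug marker was placed at the HO locus of each, a KanMX marker in Sun224T-K and a zeocin marker in Sun049T-Z, and Hyb-8 is 1 isolate from mated spores of UV-treated cultures of both. The labels further describe Sun224T-K and Hyb-8 as lacking PHO13, a deletion that the paper does not mention. The methods speak of triplicate samples without saying whether separate fermentations lay behind a strain's 3 arrays, so the p-values measure the spread between these arrays, which may be technical. In a bulk culture, a change in every cell and a larger change in some cells cannot be told apart.

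Baker's yeast takes up iron by a pair of routes. In the reductive route, surface reductases release iron that the oxidase Fet3 and the permease Ftr1 then carry across the plasma membrane, and in the other route transporters of the Arn family import iron bound to siderophores, small chelators made by other microbes. Both are switched on by the factor Aft1 when iron-sulfur cluster synthesis in mitochondria falls short, and under the same conditions the RNA-binding protein Tis11, also called Cth2, promotes the decay of messages for iron-consuming proteins, many of them in the TCA cycle and respiratory chain. The results below start with these genes, which lead the list of increases in Hyb-8. They go on to mitochondrial functions, nutrient uptake, lipids and peroxisomes, carbon use, and the cell surface.

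A level here is the log2 intensity of a probe minus the 75th percentile of its array. A fold change is the difference between mean levels turned back to a linear ratio, Hyb-8 over Sun224T-K unless called lower. Of the 6256 genes, 5947 gave a signal well above background on each array of 1 or more strains, Sun049T-Z included. These 5947 were tested with limma. A gene was called where the strains differed at least 2-fold with a Benjamini-Hochberg adjusted p under 0.05, and is said to have risen or fallen where the adjusted p alone was under 0.05. By the first rule 51 genes were called higher in Hyb-8 (0.858% of those tested) and 23 lower (0.387%). By the second, 180 genes rose (3.03%) and 146 fell (2.46%). At an unadjusted p under 0.05 by limma, 733 of the 5947 genes were higher and 615 lower, against which such counts for the lists below are to be read. The 3 arrays of each strain did not overlap for all 74 called genes, beside 30.4% of all genes tested. With 3 arrays against 3, an exact two-sided permutation test of a single gene cannot go below p = 0.1, so the calls rest on the spread shared across genes in the fit. The median log2 fold change over all genes tested was 0.01. When arrays were scaled to actin (ACT1) instead, that median became 0.17 and the calls split into 91 higher and 17 lower, so that 84.3% of the calls were higher instead of 68.9%.

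**Figure D1:**
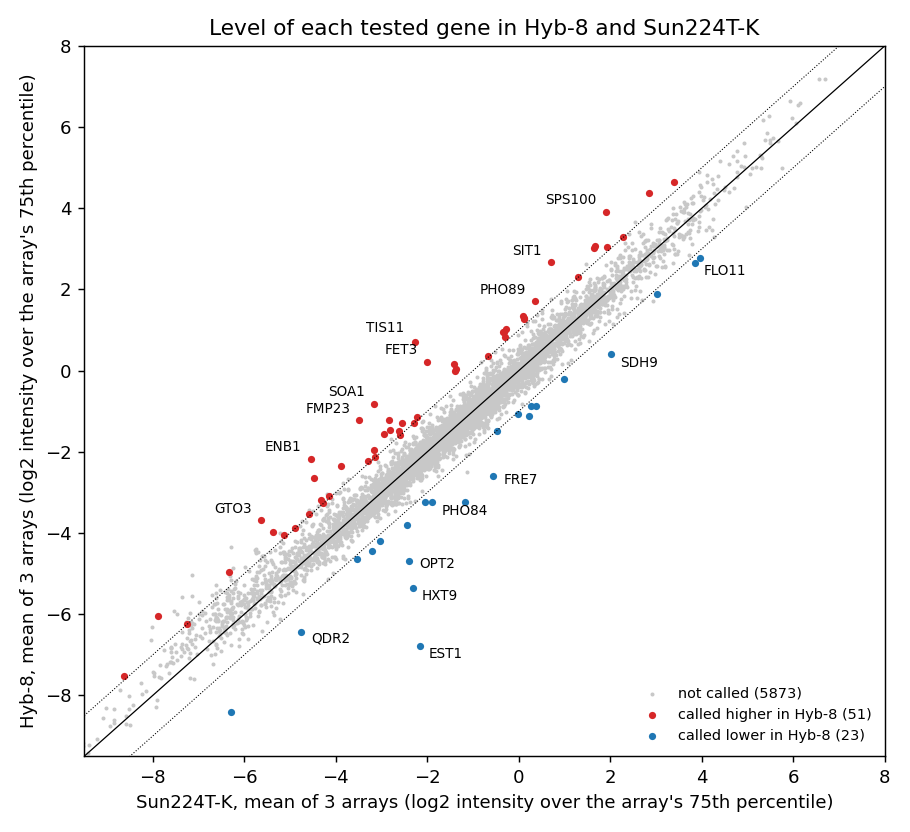
Mean level of each of the 5947 tested genes in Sun224T-K (horizontal axis) and Hyb-8 (vertical axis), 3 arrays each, as log2 intensity over the array's 75th percentile. The solid line marks equal levels and the dotted lines 2-fold differences; the 51 genes called higher in Hyb-8 (red) include TIS11, ENB1 and SIT1, and the 23 called lower (blue) include EST1 and HXT9.

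Sun224T-K replicate 2 stood apart from the other arrays of its strain. Its root mean square log2 difference from Sun224T-K replicates 1 and 3 was 0.39 to 0.48 over the tested genes, against 0.22 between those 2 arrays and 0.23 to 0.33 among the Hyb-8 arrays. It was the brightest of the 6, with an intensity of 4830 at the 75th percentile, beside 1634 to 3620 on the others. Between 92.4% and 96.4% of spots were well above background on the 6 arrays. Without Sun224T-K replicate 2, 31 genes were called higher and 26 lower, of which 30 and 20 were among the calls with all arrays. Values without this array are given below for some genes and lists, and why it stood apart was not tested. Hyb-8 replicate 1 shared a slide with Sun224T-K replicates 1 and 2, and Hyb-8 replicate 3 with Sun224T-K replicate 3. Within both of these slides all 74 called genes differed in the direction of their call. That direction was fixed in advance, as the arrays of the strains did not overlap for any of them, so it is no check on the slides. Within both slides, 33 of the genes called higher and 18 of those called lower differed by at least 1 log2 unit. A fit with slide as a fixed block called 35 higher and 17 lower, of which 29 and 16 were among the calls without it. The calls it ended were those of SPS100, ADH2, AAD10, IME1, PCS60, ERG25, YFL057C, IZH4, ZTA1, HXT5, YPR002C-A, BOP2, ARO10, TKL2, DAN4, YOL085C, RME1, OSW2, FAA3, YNL179C, YGR269W and YLR126C among genes higher in Hyb-8 and of IMA2, MYG1, CIR2, SDH2, RHO5, VHR2 and DAN1 among those lower. With the background modelled from the local signal (normexp), the calls of YJR154W, ADH2, PGU1, YFL057C, TKL2, YOL085C, YIL014C-A, YEL068C, RME1, OSW2, FAA3, YNL179C, YGR269W, HHY1, ADY2, ANT1 and YLR126C higher and of IMA2, MYG1, VTH2, VTH1, YCL049C, SUL2, YBL029W, QDR2 and DAN1 lower were not made. Scaling to ACT1 ended the calls of IMA2, MYG1, VTH2, CHO2, CSS1 and VTH1.

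The PHO13 probe, for the phosphatase gene that the labels give as deleted in both strains, had levels of -1.74, -1.20 and -1.72 in Sun224T-K and -1.71, -1.74 and -1.72 in Hyb-8. Its signal exceeded background clearly on all 6, did not pass the test between the strains (log2 -0.17, adjusted p = 0.551) and lay above its level on the Sun049T-Z arrays, -3.90 to -3.71. The labels give Sun049T-Z as control, so both strains labelled as deleted read higher than the control. Where the probe lies relative to the deleted part was not known here, and whether the deletion is as labelled was not tested. Strain names are used as the array labels give them. XKS1, the xylulokinase gene that all strains carry on the plasmid, had levels of 2.61, 2.73 and 2.54 in Sun224T-K and 2.56, 2.53 and 2.61 in Hyb-8 (log2 -0.066, adjusted p = 0.722). HO, the site of the drug markers, was well above background on 1 Sun224T-K array and on 0 Hyb-8 arrays and was not tested. Of 20 haploid-specific and mating-type genes, which are off in an a/alpha diploid, 15 were tested and 0 were called by limma, with 3 higher and 1 lower at an unadjusted p under 0.05. Their summed linear level was 1.22 to 1.30 in Sun224T-K and 1.35 to 1.71 in Hyb-8. The pheromone genes MFA2, MF(ALPHA)1 and MF(ALPHA)2 were not well above background on all arrays of either strain. MFA1, also a pheromone gene, was well above it on all 3 arrays of each strain, as were STE2, STE3, STE6 and BAR1. STE18 differed most among the tested genes (log2 1.05, adjusted p = 0.069 by limma).

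Among the gene lists, siderophore uptake gave the clearest difference between the strains. Of 7 genes for siderophore uptake and the cell wall mannoproteins that hold siderophores, 4 were called higher, 5 rose and 0 fell, and the median log2 fold change of the 7 was 1.58. The same counts were reached without Sun224T-K replicate 2, with a median of 1.55. ENB1, which carries enterobactin, had levels of -4.36, -4.72 and -4.56 in Sun224T-K and -2.21, -1.99 and -2.29 in Hyb-8. All 3 Hyb-8 values lay far above the highest Sun224T-K value, a difference of 5.22-fold (log2 2.38, SE 0.14, adjusted p = 5.19e-05), and the Sun049T-Z arrays read -2.43 to -2.08, beside those of Hyb-8. SIT1, the ferrioxamine transporter, read 0.84, 0.51 and 0.78 in Sun224T-K and 2.71, 2.67 and 2.61 in Hyb-8. It was 3.88-fold (log2 1.96, SE 0.13, adjusted p = 0.000118) higher in Hyb-8. ARN2, the triacetylfusarinine transporter, read -4.38, -4.91 and -4.16 in Sun224T-K and -3.00, -2.22 and -2.70 in Hyb-8, a difference of 3.59-fold (log2 1.84, SE 0.28, adjusted p = 0.00844). ARN1, the ferrichrome transporter, read -1.43, -1.49 and -1.33 in Sun224T-K and 0.23, 0.29 and -0.012 in Hyb-8 and was 3.00-fold (log2 1.58, SE 0.11, adjusted p = 0.000166) higher. Thus each of the 4 Arn-family transporters was called. As for all 74 called genes, no array of one strain reached the range of the other. Within the shared slides the log2 differences were 2.33 and 2.27 for ENB1, 2.03 and 1.83 for SIT1, 1.65 and 1.46 for ARN2 and 1.69 and 1.32 for ARN1. FIT1, a mannoprotein of the wall, rose without reaching 2-fold (log2 0.65, adjusted p = 0.019).

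In the reductive route, 20 genes for surface reductases, the oxidase and permease, and transporters between compartments were tested. Of these, 2 were called higher and 1 lower, 5 rose and 1 fell, with a median log2 fold change of 0.31. The number that rose was 3 or 4 in 8 of the 9 fits with an array left out, while FET3 and FTR1 were called in all 9. FET3, the multicopper oxidase, had levels of -1.88, -2.11 and -2.01 in Sun224T-K and 0.57, -0.12 and 0.21 in Hyb-8, a difference of 4.67-fold (log2 2.22, SE 0.17, adjusted p = 0.00022). FTR1, the permease that works with it, read -1.19, -1.58 and -1.34 in Sun224T-K and 0.15, -0.11 and 0.061 in Hyb-8 and was 2.64-fold (log2 1.40, SE 0.14, adjusted p = 0.00072) higher. Neither gene overlapped between the strains, as held for all 74 called genes. Both FET3 and FTR1 read below Sun224T-K in Sun049T-Z, at -3.23 to -2.94 for FET3 and -2.51 to -2.19 for FTR1. Members that rose by less than 2-fold were SMF3, the vacuolar iron exporter (log2 0.97, adjusted p = 0.0125), CCC2, which supplies copper to Fet3 (log2 0.91, adjusted p = 0.0372), and FRE8, a reductase-like gene (log2 0.70, adjusted p = 0.0372). FTH1, the vacuolar permease, did not pass (log2 0.91, adjusted p = 0.127). FRE7, a metalloreductase that responds to copper, went the other way with levels of -0.66, -0.40 and -0.63 in Sun224T-K and -2.31, -2.94 and -2.57 in Hyb-8. Its 3 Hyb-8 values lay below the lowest Sun224T-K value, 4.12-fold (log2 -2.04, SE 0.20, adjusted p = 0.000779) lower, and the Sun049T-Z arrays were lower still at -5.34 to -4.69.

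TIS11 showed the largest increase of all genes. Its levels were -1.94, -2.99 and -1.90 in Sun224T-K and 0.62, 0.72 and 0.75 in Hyb-8, so the Hyb-8 arrays were nearly equal while Sun224T-K replicate 2 read lower than the other arrays of its strain. The difference was 7.84-fold (log2 2.97, SE 0.26, adjusted p = 0.000451), and 2.61 on the log2 scale without that array. On the Sun049T-Z arrays the level was -3.48 to -3.06. Among 14 regulators and iron-sparing factors TIS11 was the only called member, 3 rose and 1 fell, and the median was 0.10. COT1, a vacuolar transporter of zinc and cobalt, rose (log2 0.61, adjusted p = 0.00797), and HMX1, the heme oxygenase, did not pass (log2 0.64, adjusted p = 0.182). FMP23, a mitochondrial protein of unknown function that is on none of the lists, read -3.13, -4.05 and -3.27 in Sun224T-K and -1.27, -1.19 and -1.22 in Hyb-8. It was 4.78-fold (log2 2.26, SE 0.21, adjusted p = 0.000646) higher, and Sun049T-Z lay between at -2.08 to -1.76.

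**Figure D2:**
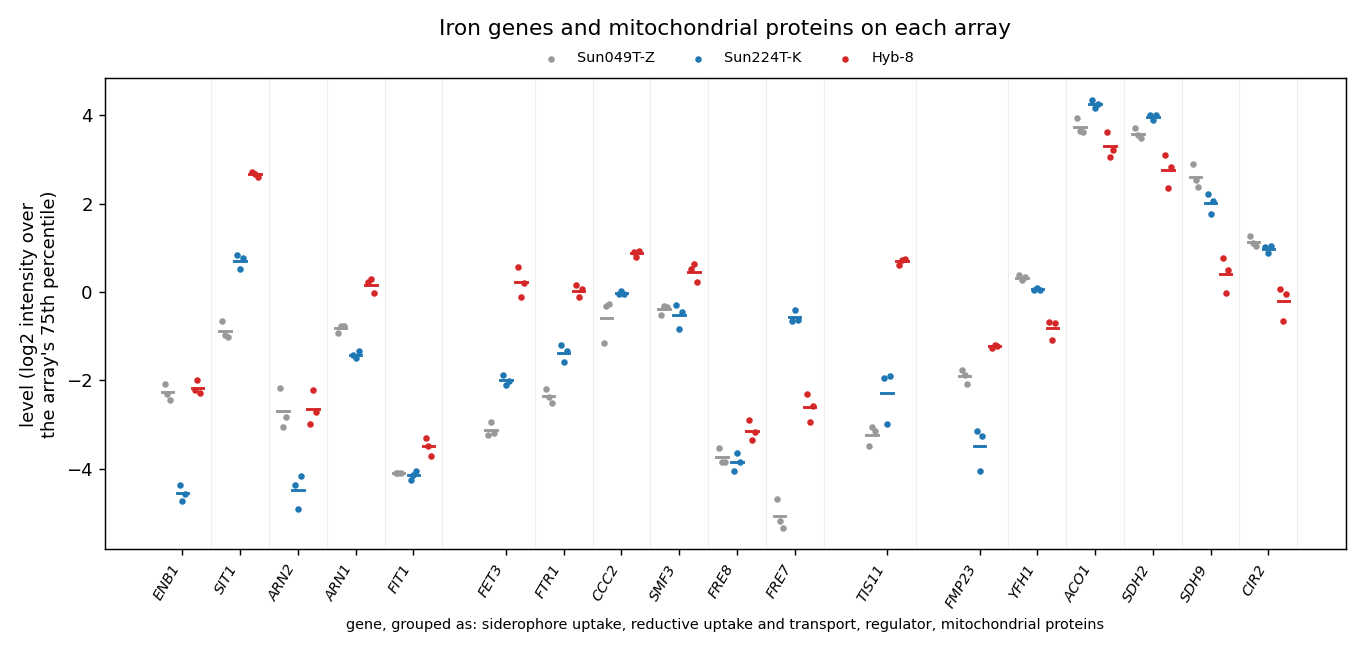
Levels on each array (vertical axis, log2 intensity over the array's 75th percentile) of genes for iron uptake, TIS11 and mitochondrial proteins, grouped along the horizontal axis; points are single arrays and bars the mean of 3. Hyb-8 (red) lay above Sun224T-K (blue) for ENB1, SIT1, ARN2, ARN1, FET3, FTR1 and TIS11 and below it for FRE7, SDH2, SDH9 and CIR2, with Sun049T-Z (grey) for reference.

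A few genes for mitochondrial enzymes were called lower in Hyb-8. SDH2, the iron-sulfur subunit of succinate dehydrogenase, had levels of 4.01, 3.89 and 4.0 in Sun224T-K and 3.11, 2.36 and 2.83 in Hyb-8 and was 2.30-fold (log2 -1.20, SE 0.17, adjusted p = 0.00596) lower. SDH9, another gene for the flavoprotein subunit, read 2.23, 1.76 and 2.06 in Sun224T-K and 0.76, -0.023 and 0.50 in Hyb-8 and was 3.04-fold (log2 -1.60, SE 0.22, adjusted p = 0.00506) lower. CIR2, which resembles an iron-sulfur oxidoreductase that passes electrons to ubiquinone, read 1.03, 0.87 and 1.05 in Sun224T-K and 0.064, -0.65 and -0.046 in Hyb-8 and was 2.29-fold (log2 -1.19, SE 0.18, adjusted p = 0.00734) lower. As for all 74 called genes, no arrays overlapped between strains, and in each of these genes Hyb-8 replicate 2 was the lowest array. Without that array the log2 fold changes were -1.0 for SDH2, just short of 2-fold, and -0.98 for CIR2, where both calls were lost, and -1.38 for SDH9, where it held. Of 27 genes of the TCA cycle, glyoxylate cycle and gluconeogenesis, 2 were called lower, 7 fell and 2 rose, with a median of -0.23. Among those that fell were ACO1, the iron-sulfur enzyme aconitase (log2 -0.95, adjusted p = 0.012), and SDH4, the membrane anchor of succinate dehydrogenase (log2 -0.72, adjusted p = 0.0282). ICL1, isocitrate lyase of the glyoxylate cycle, rose (log2 0.77, adjusted p = 0.026). ACO1 was called lower without Sun224T-K replicate 2, at -1.0. The number that fell was 2 without Sun224T-K replicate 3 or Hyb-8 replicate 3 and 4 without Hyb-8 replicate 2. With arrays scaled to ACT1 it was 4, as was the number that rose.

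Most nuclear genes of the respiratory chain and ATP synthase had slightly lower means in Hyb-8, and few passed the test. Of 37 tested, 33 had lower mean levels in Hyb-8, beside 2847 of all 5947 genes, and the median log2 fold change was -0.31. By limma 0 were called and 7 fell, with 19 lower and 0 higher at an unadjusted p under 0.05. Relative to each gene's mean over the 6 arrays, the median level of the 37 genes was 0.25, 0.06 and 0.23 in Sun224T-K and -0.10, -0.28 and -0.13 in Hyb-8. Without Sun224T-K replicate 2 the median was -0.41, all 37 were lower and 4 fell. The number that fell was 1 without Sun224T-K replicate 1 or 3 or Hyb-8 replicate 2 or 3, 3 without Sun049T-Z replicate 2 and 11 without Sun049T-Z replicate 1. With arrays scaled to ACT1 it was 1, and the median was -0.15 where that of all genes was 0.17. With slide as a fixed block 4 fell. CYC7 was called lower without Sun224T-K replicate 2, at -1.02. CYC7, a cytochrome c isoform (log2 -0.88, adjusted p = 0.0197), COR1, a core subunit of the cytochrome bc1 complex (log2 -0.87, adjusted p = 0.0316), and NDI1, the internal NADH dehydrogenase (log2 -0.66, adjusted p = 0.0296), fell, and CYC1, the main cytochrome c gene, missed the threshold (log2 -1.23, adjusted p = 0.0586).

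Genes for the mitochondrial ribosome had a similar median, and few passed the test. Of 56 tested, 50 were lower in Hyb-8, the median was -0.32, 0 were called by limma and 6 fell, with 34 lower and 1 higher at an unadjusted p under 0.05. Their median level relative to the gene mean was 0.12, 0.31 and 0.11 in Sun224T-K and -0.11, -0.33 and -0.07 in Hyb-8. The number that fell was 0 without Hyb-8 replicate 3, 1 without Hyb-8 replicate 2 or Sun224T-K replicate 3, 2 when Sun224T-K replicate 1 was left out, 3 without Sun224T-K replicate 2 or Sun049T-Z replicate 2 or 3, and 4 without Hyb-8 replicate 1. Their median ran from -0.38 to -0.26 in the 9 fits with an array left out. The number that fell was 1 with slide as a fixed block, and 0 both with the normexp background and with arrays scaled to ACT1, where the median was -0.16. Of 137 genes of the cytosolic ribosome 0 were called and 0 fell by limma. At an unadjusted p under 0.05, 14 were lower, about the same share as the 615 of all 5947 genes. Their median was -0.08, or 0.08 with arrays scaled to ACT1. Of 11 genes for heme synthesis and transport, 9 were lower, with a median of -0.28. COX15, which makes heme A, fell (log2 -0.77, adjusted p = 0.0191), while PUG1, a plasma membrane transporter of heme and protoporphyrin, was called higher. PUG1 read -4.01, -4.40 and -4.58 in Sun224T-K and -3.00, -3.23 and -3.30 in Hyb-8 (2.22-fold (log2 1.15, SE 0.22, adjusted p = 0.0201)), and its call was lost without Sun224T-K replicate 2 or 3 or any Hyb-8 array (log2 1.03 to 1.22). YFH1, yeast frataxin, which takes part in iron-sulfur cluster assembly, fell without reaching 2-fold (log2 -0.89, adjusted p = 0.00521). It was among 2 of 20 assembly genes that fell, and the median of the 20 was -0.06.

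**Figure D3:**
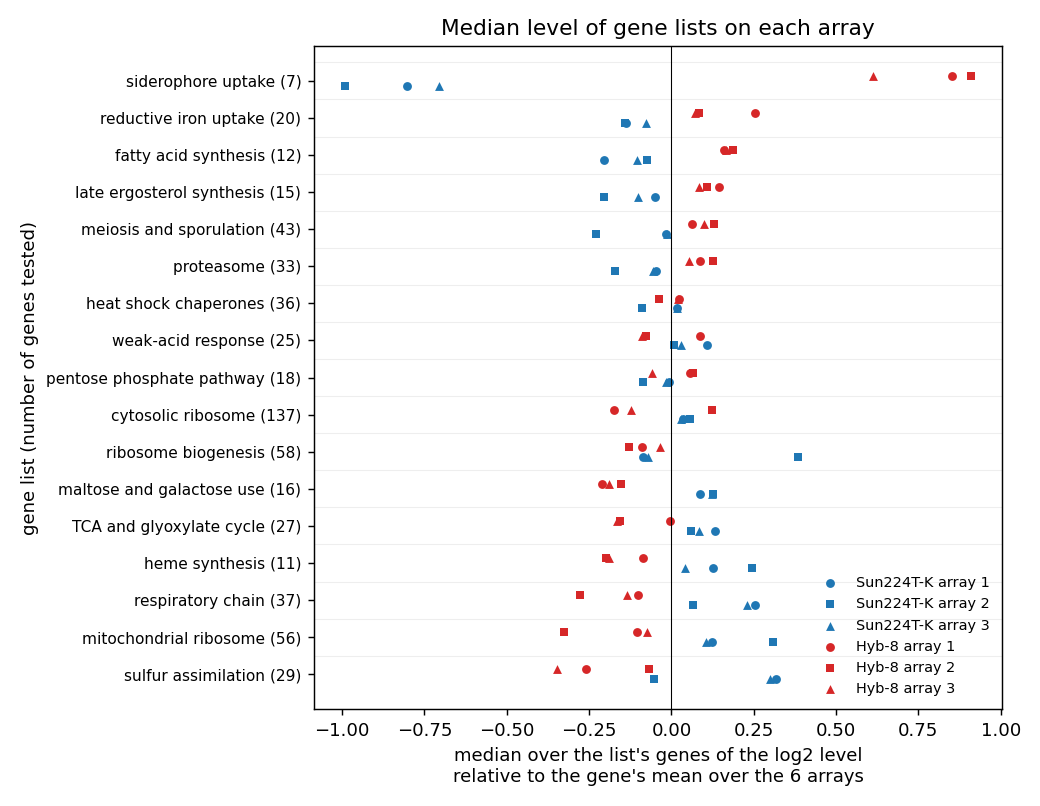
Median over the tested genes of each list (vertical axis, number of genes in brackets) of the log2 level relative to the gene's mean over the 6 arrays (horizontal axis). Marker shapes give the array number; Hyb-8 arrays (red) lay above Sun224T-K arrays (blue) for siderophore uptake and below them for the respiratory chain and mitochondrial ribosome, and Sun224T-K replicate 2 (blue square) lay apart at 0.38 for ribosome biogenesis.

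Sulfur transporters differed in both directions. SOA1, a transporter of sulfonates and other sulfur compounds, had levels of -2.98, -3.48 and -3.04 in Sun224T-K and -1.13, -0.59 and -0.73 in Hyb-8. Every Hyb-8 array lay above every Sun224T-K array, a difference of 5.11-fold (log2 2.35, SE 0.21, adjusted p = 0.000477), and Sun049T-Z was lower than both at -4.41 to -3.79. SUL2, a sulfate permease, read -3.06, -3.47 and -3.10 in Sun224T-K and -4.37, -4.54 and -4.41 in Hyb-8 and was 2.34-fold (log2 -1.23, SE 0.14, adjusted p = 0.00186) lower, but not called with the normexp background (log2 -0.75). YCT1, a high-affinity cysteine transporter, was 2.05-fold higher (log2 1.03, adjusted p = 0.000544), a call lost without Hyb-8 replicate 1 (log2 0.99). Of 29 genes for sulfur uptake and assimilation 8 fell and 2 rose, 23 lay lower in Hyb-8, and the median was -0.39. SAM1, one of the S-adenosylmethionine synthetase genes, and MUP1, the high-affinity methionine permease, fell (log2 -0.93, adjusted p = 0.00843 and log2 -0.80, adjusted p = 0.0164). MET14, which phosphorylates adenylyl sulfate, rose (log2 0.79, adjusted p = 0.0256). MET17, homocysteine synthase, varied most among arrays, with levels of -0.77, -1.91 and -0.74 in Sun224T-K and -2.84, -1.78 and -2.87 in Hyb-8. Its groups overlapped because Sun224T-K replicate 2 lay with Hyb-8 replicate 2 (log2 -1.36, adjusted p = 0.0601), and without that Sun224T-K array it was called lower at -1.74. The number of genes that fell was 2 without Hyb-8 replicate 3, 3 without Sun224T-K replicate 3 and 5 without Sun224T-K replicate 1, and it was 4 with the normexp background or slide as a fixed block and 3 with arrays scaled to ACT1.

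The phosphate transporters moved in opposite directions. PHO89, the sodium-coupled transporter that works at alkaline pH, read 0.47, 0.23 and 0.35 in Sun224T-K and 1.87, 1.28 and 2.0 in Hyb-8 and was 2.58-fold (log2 1.37, SE 0.18, adjusted p = 0.00459) higher in Hyb-8. PHO84, the main high-affinity proton-coupled transporter, read -1.98, -1.72 and -1.97 in Sun224T-K and -3.08, -3.43 and -3.20 in Hyb-8 and was 2.54-fold (log2 -1.34, SE 0.19, adjusted p = 0.00634) lower. Both kept their calls with any array left out. In Sun049T-Z the PHO89 level was 1.70 to 2.05, close to Hyb-8, and the PHO84 level was 0.082 to 0.88, above both. No other gene of the 22 in the phosphate list passed the adjusted p, and the median was -0.15, or 0.01 with arrays scaled to ACT1.

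Other permeases and regulators of nutrient use differed singly. OPT2, of the oligopeptide transporter family, had levels of -2.54, -2.06 and -2.61 in Sun224T-K and -4.46, -4.99 and -4.61 in Hyb-8. It was 4.87-fold (log2 -2.28, SE 0.18, adjusted p = 0.00022) lower in Hyb-8, with Sun049T-Z at -3.94 to -3.80. Among 35 nitrogen permeases and catabolic genes it was the only one called, and MEP1, an ammonium permease, rose (log2 0.63, adjusted p = 0.0164). VHR2, paralogue of a regulator of biotin transport genes, read -0.061, 0.82 and -0.078 in Sun224T-K and -1.17, -0.96 and -1.25 in Hyb-8 (2.56-fold (log2 -1.36, SE 0.25, adjusted p = 0.019) lower) and its call was lost without any Hyb-8 array (log2 -1.44 to -1.30). BIO4, dethiobiotin synthetase, fell (log2 -0.51, adjusted p = 0.0252), and each of the 5 biotin genes tested was lower. IZH4, a membrane protein linked to zinc homeostasis, read -0.62, 0.064 and -0.51 in Sun224T-K and 0.75, 1.1 and 1.03 in Hyb-8. It was 2.49-fold (log2 1.32, SE 0.18, adjusted p = 0.00459) higher, and with slide as a fixed block not called (log2 1.24). The paper's quantitative PCR put TIS11, SIT1, FET3, FTR1, ERG25 and ERG3 above the level of this parental strain. Only IZH4 went the opposite way there, slightly below the parental level. In the zinc list of 14 genes it was the only call; IZH1, of the same family, rose (log2 0.67, adjusted p = 0.0241) and ZRT1, the high-affinity zinc permease, fell (log2 -0.73, adjusted p = 0.0321). QDR2, a multidrug exporter, read -4.95, -4.50 and -4.85 in Sun224T-K and -6.38, -6.52 and -6.42 in Hyb-8. It was 3.18-fold (log2 -1.67, SE 0.14, adjusted p = 0.0003) lower, but by -0.42 on the log2 scale, and not called, with the normexp background.

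Lipid genes rose at a few steps. ERG25, the C-methyl sterol oxidase that needs iron, read 1.93, 1.09 and 1.91 in Sun224T-K and 3.09, 3.24 and 2.72 in Hyb-8 and was 2.58-fold (log2 1.37, SE 0.23, adjusted p = 0.0129) higher, a call lost without Hyb-8 replicate 2 (log2 1.26). Of 15 genes from lanosterol on, 3 rose and 0 fell, with a median of 0.17; ERG29, which affects methylsterol oxidase activity (log2 0.67, adjusted p = 0.00905), and ERG4, the last reductase of the pathway (log2 0.86, adjusted p = 0.0486), rose by less than 2-fold. ERG3, a sterol desaturase that the paper lists as at least 2-fold higher on its arrays and higher by quantitative PCR, was not called here. A call here also needs an adjusted p under 0.05, and the paper names no adjustment of its p-values. The missing call is therefore not a sign that ERG3 did not differ. Of the 11 earlier genes 0 were called or rose by limma, with 2 higher at an unadjusted p under 0.05. Fatty acid genes had a median of 0.42 over 12 tested, and 9 were higher, of which 2 rose, or 0 with the normexp background or slide as a fixed block. OLE1, the iron-dependent desaturase, rose (log2 0.71, adjusted p = 0.0308) with levels of 6.13, 5.59 and 6.07 in Sun224T-K and 6.50, 6.79 and 6.64 in Hyb-8. FAA3, an acyl-CoA synthetase, read -2.42, -3.14 and -2.26 in Sun224T-K and -1.66, -1.34 and -1.74 in Hyb-8 (2.04-fold (log2 1.03, SE 0.22, adjusted p = 0.0286) higher), and its call was lost without Sun049T-Z replicate 2, Sun224T-K replicate 2 or any Hyb-8 array (log2 0.76 to 1.11). CHO2, which methylates phosphatidylethanolamine, was 2.20-fold lower (log2 -1.14, adjusted p = 0.0479), a call lost without Sun049T-Z replicate 2, any Sun224T-K array or any Hyb-8 array (log2 -1.19 to -1.06).

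Several called genes encode peroxisomal proteins; this group was put together after the values were seen and is given as a description. PXP1, a peroxisomal matrix protein, had levels of -0.27, -0.37 and -0.19 in Sun224T-K and 1.1, 0.93 and 1.02 in Hyb-8 and was 2.46-fold (log2 1.30, SE 0.11, adjusted p = 0.000299) higher. PCS60, a peroxisomal acyl-activating enzyme, read -2.83, -3.50 and -2.51 in Sun224T-K and -1.96, -1.51 and -1.19 in Hyb-8 and was 2.63-fold higher (log2 1.39, adjusted p = 0.019). Its level in Sun049T-Z was 1.83 to 1.99, far above both strains. PEX9, an import receptor for matrix enzymes, read -5.16, -5.75 and -5.24 in Sun224T-K and -4.18, -3.87 and -3.84 in Hyb-8, 2.67-fold higher (log2 1.42, adjusted p = 0.00278). ANT1, which carries adenine nucleotides into peroxisomes, was 2.01-fold higher (log2 1.01, adjusted p = 0.00197). FAT3, a protein required for fatty acid uptake and not counted as peroxisomal here, was 2.45-fold higher (log2 1.29, adjusted p = 0.00278). For these 5 genes, as for all 74 called genes, the arrays of the strains did not overlap. The calls of PXP1, PEX9 and FAT3 held with any array left out. That of PCS60 was lost without Hyb-8 replicate 2 or 3 (log2 1.21 to 1.37), and that of ANT1 without Sun224T-K replicate 2 or Hyb-8 replicate 1 or 3 (log2 0.92 to 0.99).

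Among sugar transporters, HXT9 had the largest decrease. Its levels were -2.03, -2.57 and -2.34 in Sun224T-K and -5.84, -5.08 and -5.13 in Hyb-8, 8.21-fold (log2 -3.04, SE 0.22, adjusted p = 0.000199) lower in Hyb-8, while the Sun049T-Z arrays read 1.45 to 1.88. HXT9 is nearly identical to HXT11 and HXT12, so the probe may read more than this gene. HXT5, a transporter expressed in slow growth, read 3.76, 2.68 and 3.74 in Sun224T-K and 4.55, 4.90 and 4.48 in Hyb-8 (2.38-fold (log2 1.25, SE 0.27, adjusted p = 0.0299) higher), and its call was lost without Sun049T-Z replicate 2, Sun224T-K replicate 2 or 3 or any Hyb-8 array (log2 0.89 to 1.43). HXT1, a low-affinity transporter, rose (log2 0.91, adjusted p = 0.0261), and HXT6, which is almost identical to HXT7, fell (log2 -0.92, adjusted p = 0.0208) and was called lower without Sun224T-K replicate 2 at -1.06. Of the 25 transporters and sensors 3 rose and 2 fell, and 0 rose without Sun224T-K replicate 3 or any Hyb-8 array or with slide as a fixed block. GAL2, which can carry xylose, did not pass (log2 1.05, adjusted p = 0.082).

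Some genes for maltose and isomaltose use fell. IMA2, an isomaltase, read -0.53, -0.17 and -0.71 in Sun224T-K and -1.54, -1.59 and -1.35 in Hyb-8 and was 2.03-fold lower (log2 -1.02, adjusted p = 0.00701), a call lost without Sun224T-K replicate 2 or Hyb-8 replicate 1 or 2 (log2 -1.0 to -0.87). On the Sun049T-Z arrays it read 1.90 to 2.15. Of 16 maltose and galactose genes tested 7 fell and 0 rose, beside 2.46% of all genes, among them MAL32 (log2 -0.74, adjusted p = 0.0128), MAL12 (log2 -0.64, adjusted p = 0.0197), IMA3 (log2 -0.83, adjusted p = 0.0253) and IMA4 (log2 -0.85, adjusted p = 0.0486). These genes are near-identical copies within their families, so the 7 are not separate measurements. The number was 1 without Hyb-8 replicate 3, 3 without Sun224T-K replicate 3 or Hyb-8 replicate 2, and 4 without Hyb-8 replicate 1 or Sun224T-K replicate 1. With slide as a fixed block 0 fell and 1 rose, and with arrays scaled to ACT1 1 fell, 1 rose and the median was -0.03 instead of -0.19.

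In central carbon metabolism few genes differed. ADH2, the glucose-repressed alcohol dehydrogenase that oxidises ethanol, read 3.34, 1.98 and 3.24 in Sun224T-K and 4.15, 4.88 and 4.13 in Hyb-8. It was 2.88-fold (log2 1.53, SE 0.35, adjusted p = 0.0372) higher, and the call was lost without Sun049T-Z replicate 2 or 3, Sun224T-K replicate 3 or any Hyb-8 array (log2 1.28 to 1.72). TKL2, the minor transketolase, read -0.084, -0.97 and 0.13 in Sun224T-K and 0.79, 1.07 and 0.65 in Hyb-8 (2.21-fold (log2 1.14, SE 0.25, adjusted p = 0.0337) higher), and its call was lost without Sun049T-Z replicate 2 or 3, Sun224T-K replicate 2 or any Hyb-8 array (log2 0.81 to 1.24). Both genes were lowest on Sun224T-K replicate 2. TKL2 was the only called gene of 18 in the pentose phosphate pathway and xylose use, whose median was 0.05. PDC5, a pyruvate decarboxylase, fell just short of 2-fold (log2 -0.96, adjusted p = 0.000893), with levels of -0.98, -1.15 and -1.14 in Sun224T-K and -2.07, -1.95 and -2.11 in Hyb-8, and DAK2, dihydroxyacetone kinase, did too (log2 -0.98, adjusted p = 0.00506) and was called lower without Sun224T-K replicate 2, at -1.10. ADY2, an acetate transporter, read 2.43, 2.12 and 2.29 in Sun224T-K and 3.27, 3.27 and 3.34 in Hyb-8 (2.02-fold higher, log2 1.01, adjusted p = 0.0011), and ATO3, of the same family, read 2.08, 1.84 and 1.87 in Sun224T-K and 3.23, 2.76 and 3.15 in Hyb-8 (2.17-fold higher, log2 1.12, adjusted p = 0.00901). The ADY2 call was lost without Sun224T-K replicate 2 or Hyb-8 replicate 3 (log2 0.93 to 0.99) and that of ATO3 without Hyb-8 replicate 3 (log2 1.07). ARO10, phenylpyruvate decarboxylase of the fusel alcohol pathway, read 0.55, -0.57 and 0.35 in Sun224T-K and 1.44, 1.21 and 1.16 in Hyb-8 (2.24-fold (log2 1.16, SE 0.26, adjusted p = 0.0372) higher) and was not called without Sun049T-Z replicate 2 or 3, Sun224T-K replicate 2 or 3 or any Hyb-8 array (log2 0.82 to 1.28). ARO9, the aminotransferase a step earlier, rose (log2 0.56, adjusted p = 0.0423).

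**Figure D4:**
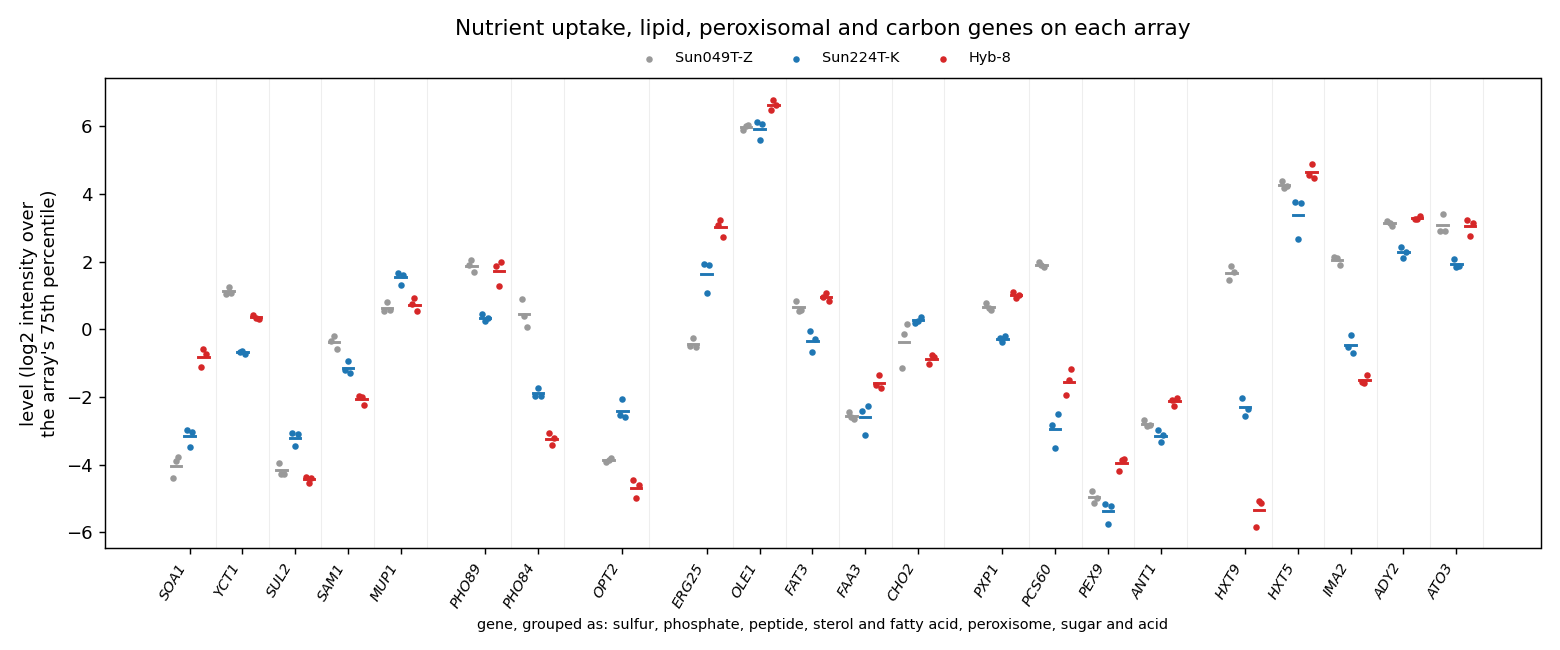
Levels on each array (vertical axis, log2 intensity over the array's 75th percentile) of genes for nutrient uptake, lipids, peroxisomes and carbon use, grouped along the horizontal axis; points are single arrays and bars the mean of 3. SOA1 and PHO89 were higher and SUL2, PHO84, OPT2 and HXT9 lower in Hyb-8 (red) than in Sun224T-K (blue), with Sun049T-Z in grey.

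The largest decrease of all was that of EST1, a subunit of telomerase. Its levels were -2.19, -2.16 and -2.13 in Sun224T-K and -6.57, -6.66 and -7.11 in Hyb-8, a difference of 24.6-fold (log2 -4.62, SE 0.15, adjusted p = 5.5e-07). In Hyb-8 the probe exceeded background on 2 of the 3 arrays, so the size of the fold rests on a dim signal there. The Sun224T-K arrays were nearly equal, and Sun049T-Z read -3.80 to -3.54. EST1 was the only called gene among 16 for telomere maintenance, of which YKU80, part of the telomere-binding Ku complex, rose (log2 0.65, adjusted p = 0.0197) and the median was 0.05. YJR149W, which resembles a nitronate monooxygenase, read -1.23, -1.21 and -1.11 in Sun224T-K and -3.32, -3.27 and -3.12 in Hyb-8 and was 4.14-fold (log2 -2.05, SE 0.10, adjusted p = 1.62e-05) lower. SPS100, a spore wall protein, had levels of 2.27, 1.22 and 2.22 in Sun224T-K and 3.76, 4.36 and 3.64 in Hyb-8. It was 4.04-fold (log2 2.01, SE 0.28, adjusted p = 0.00523) higher, lowest on Sun224T-K replicate 2, and 1.67 on the log2 scale without that array. With slide as a fixed block it was not called (1.77).

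Regulators of meiosis were among the called genes. IME1, the master activator of meiosis, read -0.93, -2.11 and -1.17 in Sun224T-K and 0.15, -0.034 and -0.14 in Hyb-8 (2.63-fold (log2 1.40, SE 0.26, adjusted p = 0.0197) higher), and its call was lost without Sun224T-K replicate 3 or any Hyb-8 array (log2 1.32 to 1.51). RME1, which represses IME1, was higher as well, at -3.98, -4.36 and -4.11 in Sun224T-K and -3.18, -3.00 and -3.10 in Hyb-8 (2.08-fold (log2 1.06, SE 0.18, adjusted p = 0.0128)), and its call was lost without Sun224T-K replicate 2 or 3 or Hyb-8 replicate 2 or 3 (log2 0.95 to 1.07). OSW2, of the outer spore wall, was 2.07-fold higher (log2 1.05, adjusted p = 0.00523), a call lost without Sun224T-K replicate 2 (log2 0.90). Of 43 meiosis and sporulation genes 3 were called higher, 6 rose and 0 fell, and the median was 0.25. The 3 called were IME1, RME1 and SPS100, and OSW2 is not on this list. The number that rose was 1 without Sun224T-K replicate 3 or Hyb-8 replicate 3 and 2 without Hyb-8 replicate 2, and was 2 with the normexp background and 1 with slide as a fixed block. The median was 0.08 without Sun224T-K replicate 2, on which the list read lowest, at -0.23 relative to the gene means.

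At the cell surface, FLO11, the flocculin of adhesion and filamentous growth, had levels of 4.04, 3.58 and 3.92 in Sun224T-K and 2.68, 2.97 and 2.33 in Hyb-8. It was 2.28-fold (log2 -1.19, SE 0.18, adjusted p = 0.00788) lower in Hyb-8, and the Sun049T-Z arrays read 2.16 to 2.40. DAN1 and DAN4 are mannoproteins of anaerobic walls and lie next to each other on chromosome X. DAN4 read -2.63, -2.77 and -2.44 in Sun224T-K and -1.58, -0.84 and -2.03 in Hyb-8 (2.19-fold (log2 1.13, SE 0.25, adjusted p = 0.0372) higher) and DAN1 -5.97, -7.09 and -5.81 in Sun224T-K and -7.84, -8.57 and -8.84 in Hyb-8 (adjusted p = 0.0125). In Hyb-8 DAN1 was well above background on 0 arrays, in Sun224T-K on 2, so it is given as at least 1.93-fold lower, a bound set by the lowest signal well above background. DAN1 was tested only because its signal passed on all 3 Sun049T-Z arrays. With the normexp background DAN1 was not called and the direction was not kept (log2 0.019). The DAN4 call was lost without Sun049T-Z replicate 2 or 3, any Sun224T-K array or Hyb-8 replicate 1 or 2 (log2 0.81 to 1.22) and that of DAN1 without Sun224T-K replicate 3 or Hyb-8 replicate 2 or 3. PGU1, a secreted polygalacturonase, read -6.26, -6.56 and -6.20 in Sun224T-K and -4.84, -5.14 and -4.93 in Hyb-8 (2.59-fold (log2 1.37, SE 0.28, adjusted p = 0.0267) higher), and its call was lost without Sun049T-Z replicate 2, any Sun224T-K array or any Hyb-8 array (log2 1.27 to 1.46). GAS1, a glucan-remodelling enzyme, and FKS1, a glucan synthase, fell (log2 -0.88, adjusted p = 0.0372 and log2 -0.70, adjusted p = 0.0309).

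Redox genes changed in both directions. GTO3, a glutathione transferase, had levels of -5.28, -6.14 and -5.47 in Sun224T-K and -3.54, -3.76 and -3.74 in Hyb-8, 3.85-fold (log2 1.94, SE 0.22, adjusted p = 0.00165) higher, with Sun049T-Z above both at -3.35 to -2.85. ZTA1, an NADPH-dependent quinone reductase, read 0.31, -0.33 and 0.27 in Sun224T-K and 1.37, 1.43 and 1.25 in Hyb-8 (2.40-fold (log2 1.26, SE 0.17, adjusted p = 0.0045) higher), and with slide as a fixed block was not called (log2 1.21). AAD10, an aryl-alcohol dehydrogenase with near-identical relatives, read 1.90, 1.25 and 1.83 in Sun224T-K and 2.64, 3.91 and 2.66 in Hyb-8 (2.66-fold (log2 1.41, SE 0.32, adjusted p = 0.0372) higher), and YFL057C, a fragment of such a gene, was 2.57-fold higher (log2 1.36, adjusted p = 0.0389). The AAD10 call was lost without Sun049T-Z replicate 2 or 3, any Sun224T-K array or Hyb-8 replicate 2 or 3 (log2 0.99 to 1.61) and that of YFL057C without Sun049T-Z replicate 2 or 3, any Sun224T-K array or Hyb-8 replicate 2 or 3 (log2 1.07 to 1.51). CCP1, the mitochondrial cytochrome c peroxidase, and CTT1, the cytosolic catalase, both heme proteins, fell (log2 -0.81, adjusted p = 0.00185 and log2 -0.95, adjusted p = 0.028), and CTT1 was called lower without Sun224T-K replicate 2, at -1.09. Of the 36 oxidative stress genes 3 rose, or 0 with slide as a fixed block, and 2 fell, with a median of 0.00.

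Among called genes of known function outside these groups, NRG2, a repressor of glucose-repressed genes, was 2.10-fold higher (log2 1.07, adjusted p = 0.00197). CMK2, a calmodulin-dependent kinase, was 2.04-fold higher (log2 1.03, adjusted p = 0.00146), a call lost without Sun224T-K replicate 1 or Hyb-8 replicate 3 (log2 0.95 to 0.98). RHO5, a small GTPase, was 2.37-fold lower (log2 -1.24, adjusted p = 0.0188), lost without Sun224T-K replicate 3 or Hyb-8 replicate 1 or 3 (log2 -1.23 to -1.13). MYG1, a nuclease of mitochondria and nucleus, was 2.08-fold lower (log2 -1.05, adjusted p = 0.0171), lost without Sun224T-K replicate 2 or Hyb-8 replicate 2 or 3 (log2 -1.10 to -0.85). VTH1 and VTH2, near-identical relatives of a vacuolar sorting receptor, were 2.23-fold and 2.15-fold lower (with the normexp background log2 -0.73 and -0.61, not called), and their probes may read the same messages. CSS1, of unknown function, was 2.20-fold lower (log2 -1.14, adjusted p = 0.00397).

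The remaining called genes have no well described product. YJR154W, among the 12 largest increases, read -7.95, -8.31 and -7.40 in Sun224T-K and -6.11, -6.04 and -6.02 in Hyb-8. It was 3.56-fold (log2 1.83, SE 0.20, adjusted p = 0.00146) higher, near background, and well above it on 1 Sun224T-K array and 3 Hyb-8 arrays. With the normexp background it was not called (log2 0.96, adjusted p = 0.117 by limma). YGL072C read -2.54, -3.32 and -2.66 in Sun224T-K and -1.11, -1.33 and -1.23 in Hyb-8 (3.07-fold (log2 1.62, SE 0.18, adjusted p = 0.00176) higher), the lowest value again on Sun224T-K replicate 2. YBL029W read -2.40, -2.49 and -2.46 in Sun224T-K and -3.70, -3.64 and -4.05 in Hyb-8 and was 2.55-fold (log2 -1.35, SE 0.17, adjusted p = 0.00362) lower, just short of 2-fold with the normexp background. YEL067C, YOL014W, YPR002C-A, BOP2, YIL014C-A, YEL068C, YNL179C, YGR269W, HHY1 and YLR126C were 2.01-fold to 2.92-fold higher, and YCL049C was 2.28-fold lower. YOL085C was well above background on 0 Sun224T-K arrays and 1 Hyb-8 array, and was tested only because it passed on all 3 Sun049T-Z arrays. Its level in Sun224T-K is only a bound and no fold is given. Of these, YPR002C-A, BOP2, YOL085C, YIL014C-A, YEL068C, YNL179C, YGR269W, HHY1 and YLR126C lost their calls in at least 1 of the 9 fits with an array left out. BOP2 did so without Sun224T-K replicate 2 or Hyb-8 replicate 2 or 3 (log2 0.91 to 1.24), HHY1 without Sun224T-K replicate 2 or Hyb-8 replicate 1 (log2 0.98) and YOL085C without Sun224T-K replicate 2 or Hyb-8 replicate 3. YLR126C did so without Sun224T-K replicate 3 or Hyb-8 replicate 2 or 3 (log2 0.95 to 0.99), YPR002C-A without Sun224T-K replicate 2 or 3 or Hyb-8 replicate 2 or 3 (log2 0.97 to 1.33) and YEL068C without Sun224T-K replicate 2 or 3 or Hyb-8 replicate 1 or 3 (log2 0.96 to 1.12). YIL014C-A did so without Sun224T-K replicate 2 or 3 or Hyb-8 replicate 1 or 3 (log2 0.90 to 1.04), YNL179C without Sun224T-K replicate 2 or 3 or Hyb-8 replicate 2 or 3 (log2 0.94 to 0.98) and YGR269W without Sun049T-Z replicate 2 or 3, Sun224T-K replicate 2 or 3 or Hyb-8 replicate 2 or 3 (log2 0.75 to 1.11).

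Some called genes are neighbours on a chromosome. On chromosome X, YJR149W, DAN1 and DAN4 are adjacent, YJR149W with a log2 fold change of -2.05, DAN1 at least 1.93-fold lower and DAN4 at 1.13. PGU1, YJR154W and AAD10 are adjacent there too, with log2 fold changes of 1.37, 1.83 and 1.41. On chromosome XV, ENB1 at 2.38 lies beside IMA2 at -1.02. On chromosome II, ZTA1 at 1.26 lies beside FMP23 at 2.26, and on chromosome V, YEL068C lies beside YEL067C. These pairs were picked after the values were seen, and their number was not tested.

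No gene was called among heat shock chaperones, the Haa1 and War1 weak-acid responses, trehalose and glycogen, or the vacuolar proton pump. Of 36 heat shock chaperone genes 0 rose or fell by limma, with 2 higher and 6 lower at an unadjusted p under 0.05, and the median was 0.03. Of 25 genes of the Haa1 and War1 weak-acid responses 0 were called and 1 fell, MSN4, a general stress regulator (log2 -0.70, adjusted p = 0.0238), with a median of -0.03. Of 18 trehalose and glycogen genes and 16 genes of the vacuolar proton pump 0 rose or fell, with medians of 0.00 and 0.02. At an unadjusted p under 0.05 these lists held 2 higher and 2 lower, and 1 higher and 1 lower. All 33 proteasome genes were higher in Hyb-8, with a median of 0.19 and a lowest value of 0.01, yet by limma 0 were called and 1 rose, with 5 higher at an unadjusted p under 0.05. Without Sun224T-K replicate 2, on which this list read lowest, 32 were higher and the median was 0.14. For ribosome biogenesis the median of 58 genes was -0.18 with all arrays and -0.02 without Sun224T-K replicate 2, the array on which it read highest, and 0 rose or fell by limma with 4 lower at an unadjusted p under 0.05.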

How the data were processed

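RNA of each strain was hybridised to 1-colour Agilent yeast arrays. The authors deposited the scanner output, in which the spot intensity is linear and background-subtracted by Agilent Feature Extraction 10.1.1.1 (per the submitters' processing notes), and a table of log2 values made in GeneSpring GX, shifted to the 75th percentile. Apart from controls, each array held 43792 spots, 7 for each of 6256 probes.

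After outlier spots were dropped, the 75th percentile of the array was subtracted from the log2 intensity, spots were averaged per probe, and 5756 of the probes were named through a gene table of assembly R64. A probe counted as well above background where more than 50% of its unmarked spots did. limma 3.58.1 in R 4.3.3 (lmFit, eBayes) used the strain as its only term and all 9 arrays. The fit was tested on simulated data. The number of arrays limits the precision.

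The gene lists, the strain pair and the rules were chosen with earlier results of these data known. Per-array values are given for the 12 largest increases, the 10 largest decreases and called members of lists. Uncalled genes are named from at most 4 per list with the largest change. Of the listed genes, 7 had no probe. Alternatives concerned background, scaling, filters, thresholds, the fit, blocks and single arrays left out. For the normexp background an offset of 50 was used.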

Additional observations from a re-analysis of the deposited data

How the results depend on the processing

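Of the 51 genes called higher and 23 called lower, 22 and 15 were called in all 9 fits with 1 array left out, and 18 and 7 also under each of 16 other settings of background, scaling, filter, fit and block. With an array left out the calls ran from 29 to 88 higher and from 18 to 26 lower; the lowest count higher came without Hyb-8 replicate 3 and the highest without Sun224T-K replicate 1, and the cause was not tested. Scaling to ACT1 gave 91 higher. A fold threshold of 1.5 gave 132 higher and 90 lower, the adjusted p alone 180 and 146, and the unadjusted p 81 higher, as these rules ask for less. The normexp background gave 14 lower. On that background the log2 fold change of DAN1, near background in Hyb-8, was 0.019 instead of -2.13. That of PHO13 ran from -0.26 to 0.011 with an array left out, the latter without Sun224T-K replicate 2, and that of XKS1 was 0.096 under ACT1 scaling; neither was called. With a replicate block 40 genes were called higher and 21 lower, but the numbers do not pair the arrays, as deviations of same-numbered arrays correlated at 0.03, -0.25 and -0.04. Signal over background limits the values of dim probes such as YJR154W, YOL085C, DAN1 and, in Hyb-8, EST1.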
